A study of Homo sapiens with 26 samples.

Results

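RPL29, SEC61B and SYNJ2BP are the 3 endogenous human genes that supplied the parts of a proximity-labeling system for ribosomes. RPL29, a protein of the large (60S) ribosomal subunit, carried the Avi tag, to which the bacterial enzyme BirA attaches biotin. SEC61B encodes Sec61β, which anchored the light-switched ligase LOV-BirA in the ER membrane. SYNJ2BP encodes OMP25, whose transmembrane domain (TMD) anchored LOV-BirA in the outer mitochondrial membrane (OMM). The genes were chosen for these roles and not for their values. They are 3 of 60663 genes in the RNA-seq tables. In the ribosome profiling tables, which list 58849 entries, RPL29 and SEC61B have entries of their own and SYNJ2BP is held only in a joint entry with COX16 and the readthrough gene SYNJ2BP-COX16.

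The cells were HEK293T, derived from human embryonic kidney, and in all of them the endogenous RPL29 gene ended in an HA, TEV site and Avi tag. Ribosome footprints were sequenced from lines with ER LOV-BirA (fused to Sec61β, SFFV promoter), OMM LOV-BirA (fused to GFP and the OMP25 TMD, EF1α promoter) or LOV-BirA free in the cytosol. Each of the 3 lines has 2 replicates, and each replicate was split from 1 lysate into total input and streptavidin pulldown, which makes 12 libraries. RNA-seq of whole transcripts used OMM LOV-BirA throughout, in wild-type cells with a negative control gRNA, AKAP1 null cells and LARP4 null cells (2 replicates each) and in cells without cycloheximide (CHX, 1 replicate), which makes 14 libraries. CHX, an inhibitor of translation elongation, belongs to the general protocol and was taken to have been present in every other group. Per the study's methods, labeling with biotin under blue light was shorter in experiments without CHX. The effects of CHX and of labeling time therefore cannot be told apart. The fusions were delivered by lentivirus into sorted polyclonal lines, and each null genotype is 1 monoclonal line, so a genotype and a clone cannot be told apart. The labels do not say how the replicates were grown, so p-values measure only the spread between these samples. No line without tagged RPL29 and no pulldown without LOV-BirA was analysed here.

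The 60S subunit docks with its nascent chain exit on the Sec61 channel, the protein-conducting pore of the ER membrane, which is built of the subunits Sec61α (SEC61A1), Sec61β and Sec61γ (SEC61G). Sec61β and OMP25 are tail-anchored proteins: a single TMD near the C terminus holds each in its membrane, and that segment leaves the ribosome only when translation ends. Tail-anchored ER proteins are commonly inserted after translation through the GET pathway and not by the signal recognition particle that brings secretory mRNAs to the ER.

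The tags and fusions meet the endogenous genes at the ends of their coding sequences, which are printed here because they decide which transgene footprints the gene tables can hold. RPL29 lies on GRCh38 chr3:51993522-51995895 (minus strand), SEC61B on chr9:99222064-99230615 (plus strand) and SYNJ2BP on chr14:70366499-70417090 (minus strand). The Avi tag of RPL29 was placed where the first of these stretches ends, and Sec61β and the OMP25 TMD form the C-terminal ends of their fusions. The last 30 coding bases of the principal transcript of each gene, in the last of 4 exons, are given 5′ to 3′ with the stop codon in capitals, from the GRCh38 reference and GENCODE 44:
RPL29, chr3:51993749-51993778, minus strand: acccaggcccctacaaaggcttcagagTAG
SEC61B, chr9:99230395-99230424, plus strand: cacatttggggcaagtacactcgttcgTAG
SYNJ2BP, chr14:70372991-70373020, minus strand: gctttcatgagataccggcaacaacttTGA

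Little of the members' coding sequence was open to counting. A position entered the coding counts where it is coding in all those coding transcripts of the entry that contain it. Its 28-base window also had to occur once in the genome with 1 mismatch allowed. Rebuilding that rule from the annotation gave 134, 56 and 435 countable coding bases for RPL29, SEC61B and the SYNJ2BP entry, against coding lengths of 134, 55 and 435 in the deposited tables. In RPL29, 37 of the 480 coding bases of the principal transcript (7.7%) were countable, all within codons 1 to 34, and 97 countable bases belonged to other transcripts. Windows that recur elsewhere in the genome covered 89.4% of the RPL29 coding sequence, so counts of RPL29 in both data types are uncertain. In SEC61B, 56 of 291 coding bases (19.2%) were countable, and they reached codon 82 and took in 25 of the 57 bases of the most hydrophobic stretch, residues 71 to 89 of 96. In SYNJ2BP, 196 of 438 coding bases were countable, within codons 22 to 87. The most hydrophobic stretch of OMP25, residues 120 to 138 of 145, held 0 countable bases of 57. The joint entry drew its other 239 countable bases from COX16, a mitochondrial factor of cytochrome c oxidase assembly.

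Footprints on the RPL29 tag have no place in the annotation, and the end of RPL29 where the tag sits was not countable. Footprints on an anchor TMD copied from SYNJ2BP would not enter the coding counts. Footprints on Sec61β in the ER fusion could enter the SEC61B coding counts if the fusion keeps the natural codons, which the sources used here do not give.

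**Figure D1:**
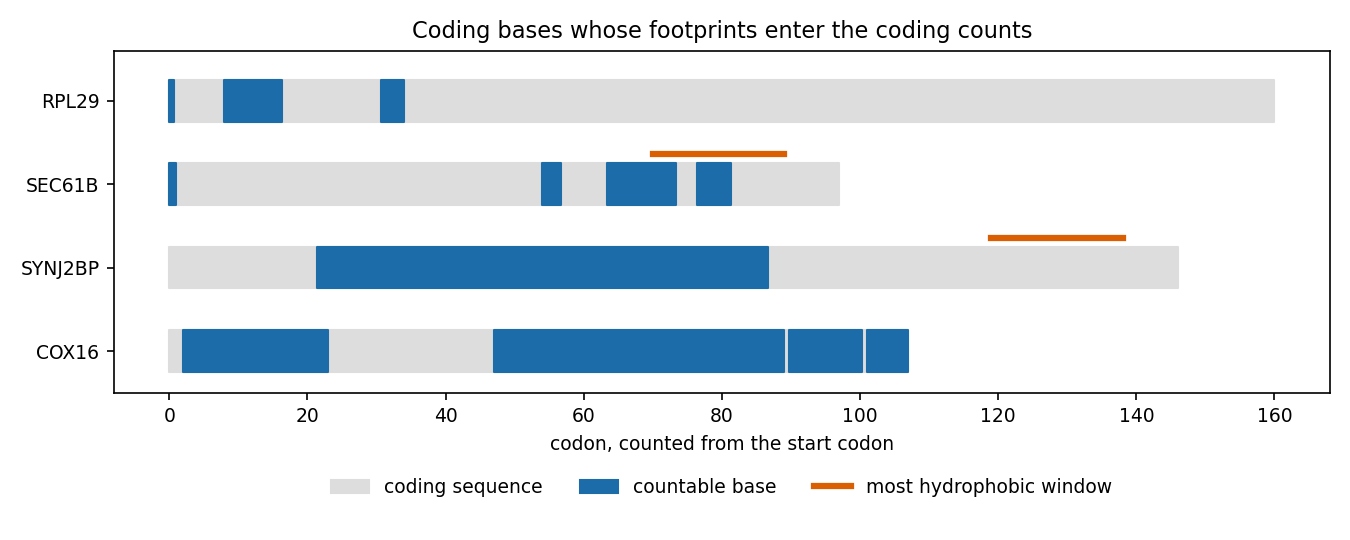
Coding bases of the members and COX16 that could contribute to the coding counts. The x axis is the codon counted from the start codon, gray bars are the coding sequences of the principal transcripts, blue marks are countable bases and orange lines are the most hydrophobic stretches of 19 residues in SEC61B and SYNJ2BP. The countable part of RPL29 ends at codon 34, that of SEC61B at codon 82 within the hydrophobic stretch, and that of SYNJ2BP at codon 87, before it.

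Coding totals ranged from 1025114 to 19539527 estimated counts in ribosome profiling and gene totals from 38347615 to 100840544 counts in RNA-seq. The OMM pulldowns were the shallowest, and the pulldown and total input of cytosol replicate 1 carry different run names. LIN28B, which HEK293T cells express, ranged from 161 to 268 CPM in RNA-seq total inputs and PTPRC, a leukocyte gene, reached at most 0.026 CPM. AKAP1 was at 115 and 119 CPM in wild-type total inputs and at 32.2 and 20.3 CPM in AKAP1 null cells. LARP4 was at 225 and 231 CPM in wild-type and at 79.3 and 74.0 CPM in LARP4 null cells.

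In the total inputs, the question was whether the line that carries a fusion holds more footprints of the gene it was taken from. SEC61B coding RPKM, replicates 1 and 2, was 382 and 514 in the ER line, 372 and 339 in the OMM line and 426 and 289 in the cytosol line. The coding counts behind these values were 667 and 392 in the ER line, 224 and 223 in the OMM line and 868 and 163 in the cytosol line. ER replicate 2 held the highest SEC61B value, but ER replicate 1 lay below cytosol replicate 1, so the lines overlapped. The fitted level of SEC61B in the ER line was 1.31 times the mean of the other lines (95% interval 0.896 to 1.91, log2 0.39, SE 0.25), with an edgeR adjusted p of 1. Among the 15 other genes of the translocon list, 0 had a higher fitted difference in the ER line, and their median was -0.05.

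The coding share of exon counts was read beside the level. A fusion of the coding sequence alone would add coding footprints but none on the SEC61B UTRs. The share could hardly show this, since the 5′ UTR held 62.0 and 31.3 counts in the ER total inputs and the 3′ UTR 0.0. Footprints on coding bases outside the countable part could enter only the exon counts. The share therefore cannot decide whether fusion footprints were counted. SEC61B exon counts in the total inputs were 2461 and 1356 in the ER line, 828 and 847 in the OMM line and 2839 and 881 in the cytosol line. The coding share of these counts was 28% ± 1.3 in the ER line (SD, n = 2), 26.7% ± 0.44 in the OMM line and 24.6% ± 8.51 in the cytosol line. The ER line exceeded the mean of the other total inputs by 2.39 percentage points (exact permutation test, two-sided, p = 0.667, where 15 splits allow no p below 0.067). That difference fell to 0.03 points without cytosol replicate 2, whose share of 18.5% was the lowest of the 6. SEC61B counts at exon positions outside the countable coding and UTR parts were 136 and 144 CPM of the coding total in the ER line, 114 and 110 in the OMM line and 119 and 146 in the cytosol line, again overlapping.

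The SYNJ2BP entry was not called higher in the OMM line, but this test could not show the fusion. Of OMP25 the fusion carries only the TMD, whose stretch holds 0 countable coding bases. Footprints on that TMD could raise neither the coding level nor the coding share. Its coding RPKM was 144 and 155 in the ER line, 126 and 136 in the OMM line and 156 and 124 in the cytosol line, from 1987 and 936, 598 and 707, and 2517.5 and 552 counts. The OMM values fell inside the range of the cytosol line and below both ER values. The fitted level in the OMM line was 0.862 times that of the other lines (95% interval 0.617 to 1.21, log2 -0.21, SE 0.22, edgeR adjusted p = 0.999). Coding positions made up 47.9% ± 2.98 of the exon counts in the OMM line and 47.0% on average elsewhere, a difference of 0.94 points (exact permutation p = 0.8). This difference turned to -0.66 points without cytosol replicate 2 and to -1.17 points without OMM replicate 1. Because the TMD stretch holds 0 countable coding bases, exon counts of the entry outside the countable coding and UTR parts were compared as well, and they were 111 and 146 CPM of the coding total in the OMM line, 153 and 141 in the ER line and 164 and 159 in the cytosol line.

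RPL29 carried its tag in all lines, so no line serves as its control. RPL29 coding RPKM was 687 and 634 in the ER line, 571 and 795 in the OMM line and 845 and 989 in the cytosol line, from 2918 and 1178, 836 and 1273.5, and 4196 and 1360.1 counts. Both cytosol values lay above the other 4. The fitted level in the cytosol line was 1.33 times the mean of the others (95% interval 0.95 to 1.88, log2 0.42, SE 0.22), with an edgeR adjusted p of 0.649, and the ER and OMM lines gave log2 differences of -0.17 (SE 0.23, adjusted p = 1) and -0.25 (SE 0.23, adjusted p = 0.999). Among 42 single-gene entries of 60S proteins with countable bases, including RPL29 and leaving out joint entries, it ranked between 25 and 37 by coding RPKM in the 6 total inputs, where medians ranged from 1236 to 2008. This rank is uncertain, since RPL29 counts were divided by 134 countable bases, of which 97 belonged to transcripts other than the principal one. The coding share of RPL29 exon counts was 68.2% ± 0.09 in the ER line, 64.3% ± 15.8 in the OMM line and 66.7% ± 1.53 in the cytosol line.

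Across the 3 lines, edgeR called 0 of 8485 entries in each comparison of total inputs (0.0% higher and 0.0% lower), with 32, 85 and 631 entries at an unadjusted p under 0.05 for the ER, OMM and cytosol lines. DESeq2 also called 0 in each. On simulated data of the ER comparison, 22.1% of genes with a log2 change of 1 were recovered and 0.0% of those with 0.5. Without cytosol replicate 1, 601, 448 and 2147 entries passed in the ER, OMM and cytosol lines, with no member among them, and the lowest adjusted p of a member was 0.0918, for SEC61B in the ER line.

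**Figure D2:**
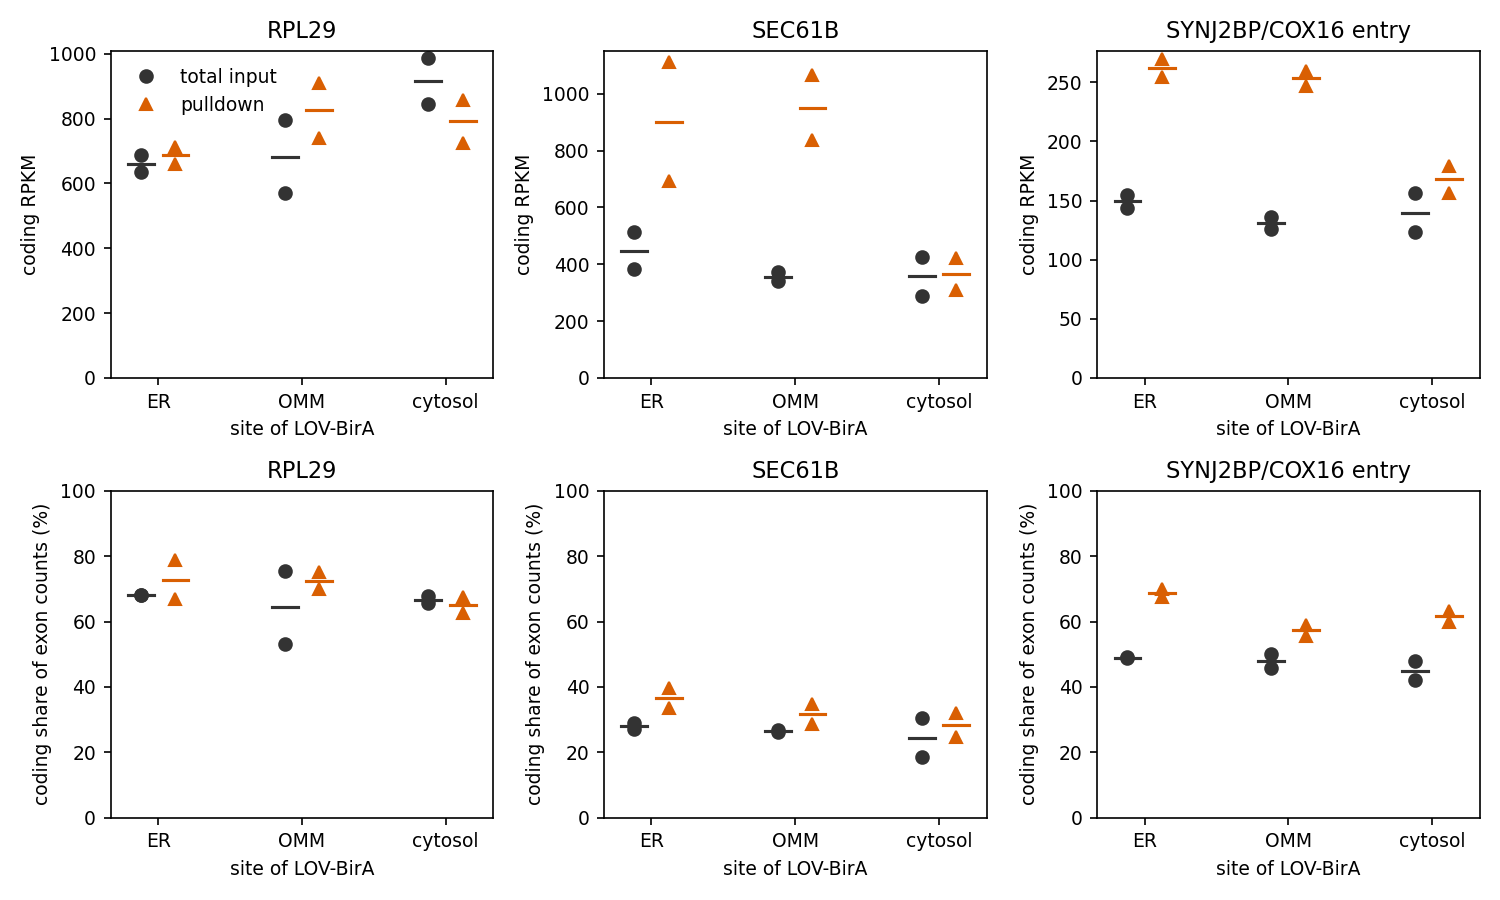
Levels of the members by line. The upper panels plot coding RPKM and the lower panels the coding share of exon counts in percent, both against the site of LOV-BirA; circles are total inputs, triangles pulldowns, each point 1 library, and bars are means of 2. In the total inputs SEC61B of the ER line (382 and 514 RPKM) overlaps the cytosol line (426 and 289), and the joint SYNJ2BP entry of the OMM line (126 and 136) lies within the range of the cytosol line (124 to 156).

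RNA-seq of total inputs separated the genes of the joint entry. SYNJ2BP was at 155 and 142 CPM in wild-type, 146 and 157 in AKAP1 null, 147 and 143 in LARP4 null and 128 CPM in cells without CHX. Between 95.1% and 96.8% of the counts of SYNJ2BP, COX16 and SYNJ2BP-COX16 in the 7 total inputs were assigned to SYNJ2BP, and per length SYNJ2BP exceeded COX16 by 5.31 to 8.19 times. COX16 (chr14:70325081-70416984, minus strand) overlaps SYNJ2BP on the same strand, so this division is that of the authors' counting and reads in the shared part are uncertain. SEC61B was at 109.6 and 95.3 CPM in wild-type, 97.0 and 93.4 in AKAP1 null, 95.3 and 87.6 in LARP4 null and 66.9 CPM without CHX. RPL29 was at 311 and 334 CPM in wild-type, 244 and 312 in AKAP1 null, 379 and 247 in LARP4 null and 375 CPM without CHX.

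Per length, on the FPKM scale computed from the counts, RPL29 (121 to 188) stood above SEC61B (55.4 to 90.7) and SEC61B above SYNJ2BP (18.1 to 22.2) in the total inputs, with no overlap between neighbors. Coding RPKM of footprints gave the same order without overlap, 571 to 989 for RPL29, 289 to 514 for SEC61B and 124 to 156 for the joint entry. No difference in the level of a member between a null line and wild-type passed the test. The log2 differences from wild-type in AKAP1 null total inputs were -0.21 (SE 0.22) for RPL29, -0.10 (SE 0.10) for SEC61B and 0.04 (SE 0.10) for SYNJ2BP, with edgeR adjusted p-values of at least 0.973, and in LARP4 null total inputs -0.03, -0.15 and -0.02, with adjusted p-values of at least 0.99. Of 13977 genes tested, 0.0% passed in AKAP1 null (489 at an unadjusted p under 0.05) and 0.0143% in LARP4 null.

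Enrichment was the log2 ratio of pulldown to total input of the same lysate, with footprints scaled to the coding total of the library and RNA-seq to the total of all genes. On this scale SEC61B footprints were enriched with both membrane-anchored ligases, and more with the OMM anchor than with the anchor in the ER, where Sec61β resides. SEC61B log2 enrichment was 0.49 and 0.91 at the ER, 1.20 and 1.66 at the OMM and -0.25 and -0.14 in the cytosol, and the 3 locations did not overlap. The coding counts behind the OMM pulldowns were 103 and 324. SEC61B stood at the 80.2 and 82.5 percentiles of all entries with at least 64 counts at the ER, 95.5 and 97.9 at the OMM and 20.1 and 30.1 in the cytosol. On exon counts its enrichment was 0.27 and 0.52 at the ER, 1.11 and 1.25 at the OMM and -0.25 and -0.46 in the cytosol.

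The edgeR fit gave SEC61B an enrichment of 1.62 times at the ER (95% interval 1.34 to 1.96, adjusted p = 8.25e-05) and 2.75 times at the OMM (2.18 to 3.47, adjusted p = 6.31e-07). In the cytosol its value was 0.871 (0.709 to 1.07, adjusted p = 0.442). Of all entries tested, 20.1% were called higher and 71.6% lower at the ER (29.5% and 25.7% with TMM scaling), 17.7% and 45.3% at the OMM (26.3% and 24.9% with TMM) and 2.08% and 6.28% in the cytosol (2.01% and 6.04% with TMM). With the denominators of the deposited RPKM, which count all reads on annotated transcripts, these shares were 22.1% and 54.4%, 17.2% and 46.2%, and 32.9% and 3.7%. The medians of all entries were -0.67, -0.36 and 0.02 on the log2 scale, so a value near 0 at the ER or the OMM stands above most entries. TMM, which centers the bulk of entries, raised SEC61B to 1.33 at the ER and 1.77 at the OMM.

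The differences between locations were tested in the same fit, where the comparisons with the cytosol share the cytosol libraries. SEC61B enrichment was higher at the ER than in the cytosol by 0.90 (SE 0.19, edgeR adjusted p = 0.000397) and at the OMM than in the cytosol by 1.66 (SE 0.21, adjusted p = 6.87e-06). Its ER value was below its OMM value by a log2 difference of -0.76 (SE 0.20, adjusted p = 0.00463). This last difference kept its sign but lost its call with TMM (-0.43, adjusted p = 0.106), DESeq2 (-0.49, adjusted p = 0.119) and the denominators of the deposited RPKM (-0.46, adjusted p = 0.0822), and without ER replicate 1 or OMM replicate 2 (-0.54 and -0.50, adjusted p = 0.102 and 0.171). Shares called higher and lower were 19.9% and 61.5% for ER against cytosol (29.3% and 20.2% with TMM), 17.4% and 38.9% for OMM against cytosol (25.2% and 21.3%) and 18.6% and 31.6% for ER against OMM (22.8% and 14.7%). With the RPKM denominators they were 20.2% and 58.5%, 12.4% and 53.0%, and 22.2% and 15%. The medians of these differences over all entries were -0.64, -0.34 and -0.28.

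The SYNJ2BP entry was enriched at both membranes and, on the scale of coding totals, more at the OMM, where OMP25 resides. Its log2 enrichment was 0.45 and 0.60 at the ER, 1.00 and 0.94 at the OMM and -0.04 and 0.11 in the cytosol, without overlap between locations. The fit gave 1.44 times at the ER (95% interval 1.25 to 1.65, edgeR adjusted p = 5.22e-05), 1.96 times at the OMM (1.68 to 2.29, adjusted p = 6.69e-07) and 1.02 times in the cytosol (0.89 to 1.18, adjusted p = 0.881). The ER value was 0.49 above the cytosol (SE 0.13, adjusted p = 0.00296) and the OMM value 0.94 above it (SE 0.14, adjusted p = 3.97e-05), and the ER value differed from the OMM value by -0.45 (SE 0.14, adjusted p = 0.0137). This last call was lost with TMM (-0.12, adjusted p = 0.552), DESeq2 (-0.18, adjusted p = 0.507) and the RPKM denominators (adjusted p = 0.492), and without ER replicate 1 (-0.37), OMM replicate 1 (-0.42) or OMM replicate 2 (-0.48). With exon counts of the whole entry, which add long parts outside the coding sequence, the ER enrichment was 0.11 (adjusted p = 0.189), the OMM enrichment 0.71 (adjusted p = 2e-06) and the cytosol value turned to -0.34 (adjusted p = 0.0116). The footprints of SYNJ2BP and COX16 cannot be told apart in these values.

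RPL29 footprints were called higher in the pulldown at the OMM and lower in the cytosol, with an ER value whose sign turned on the scaling. Log2 enrichment was -0.42 and -0.03 at the ER, 0.41 and 0.21 at the OMM and -0.45 and -0.43 in the cytosol, so that the OMM values lay above 0 and above the other locations, while ER replicate 1 lay beside the cytosol values. Fitted values were -0.23 at the ER (SE 0.10, edgeR adjusted p = 0.0422), 0.29 at the OMM (SE 0.12, adjusted p = 0.0345) and -0.44 in the cytosol (SE 0.10, adjusted p = 0.0103). The OMM call was lost without OMM replicate 1 (0.20, adjusted p = 0.326) or OMM replicate 2 (0.41, adjusted p = 0.104). The ER value was 0.41 with TMM (adjusted p = 0.00292), 0.37 with DESeq2 (adjusted p = 0.00644) and 0.05 with the RPKM denominators (adjusted p = 0.621), and -0.03 without ER replicate 1 (adjusted p = 0.868). Its call was also lost without OMM replicate 1 or 2 (adjusted p = 0.0677 and 0.0684). Per deposited RPKM the ER lysates gave -0.06 and 0.17. The coding share of the RPKM denominator was 40.3% and 46.6% in the ER total inputs and 52.0% and 53.4% in the ER pulldowns. In the cytosol, where the median of all entries was 0.02, RPL29 was at the 8.8 and 10.7 percentiles, and its value with the RPKM denominators was -0.21 (adjusted p = 0.0935). RPL29 enrichment at the OMM exceeded that in the cytosol by 0.74 (SE 0.15, adjusted p = 0.000694) and that at the ER by 0.52 (ER minus OMM -0.52, SE 0.15, adjusted p = 0.00905), the latter not with TMM (-0.19, adjusted p = 0.36), nor without ER replicate 1 (-0.32, adjusted p = 0.18) or OMM replicate 1 (-0.44, adjusted p = 0.105). The ER and the cytosol differed by 0.21 (95% interval -0.09 to 0.52, adjusted p = 0.182), which passed with TMM (0.85, adjusted p = 0.000143) and without ER replicate 1 (0.42, adjusted p = 0.0415).

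**Figure D3:**
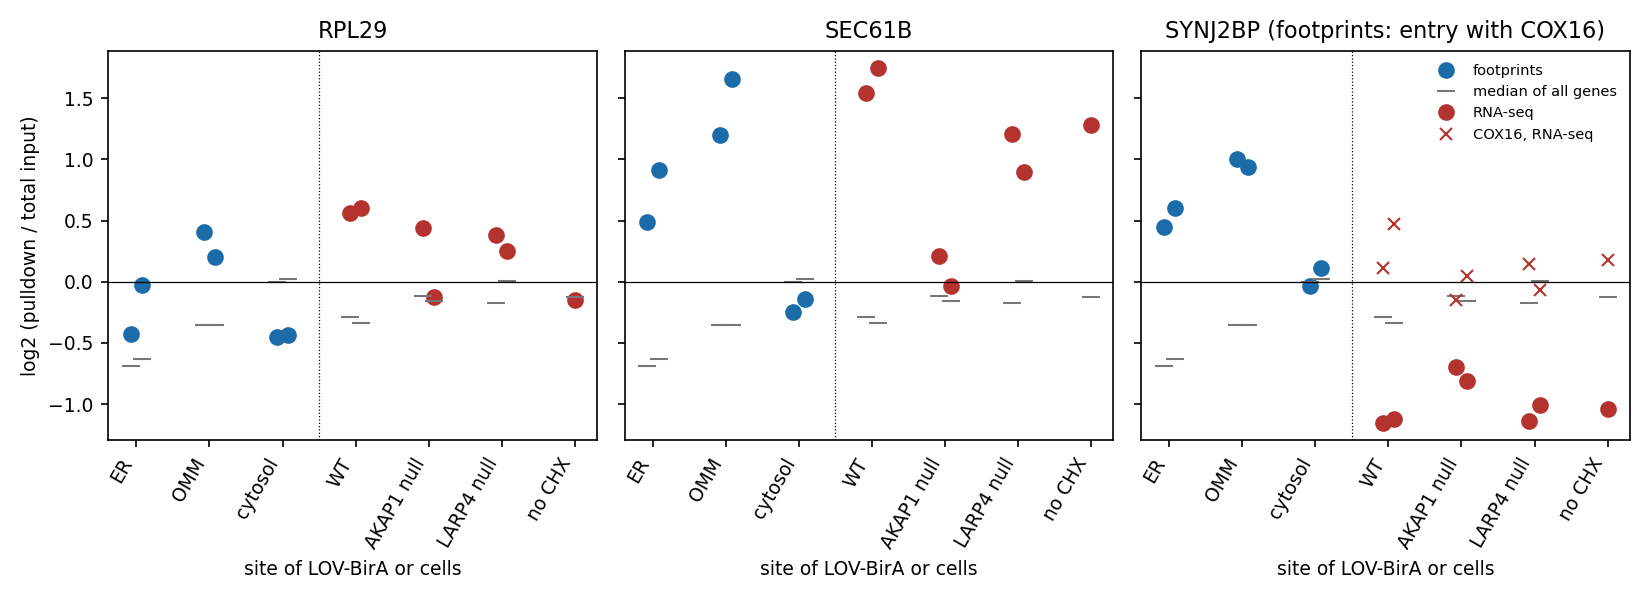
Log2 pulldown over total input of the members in every lysate. Blue circles are footprints by site of LOV-BirA, red circles RNA-seq at the OMM by cell line or treatment, crosses COX16 in RNA-seq, gray dashes the median of all genes of that lysate, and each point is 1 lysate. SEC61B is highest at the OMM in footprints (1.20 and 1.66) and in wild-type RNA-seq, and near 0 in AKAP1 null cells, while SYNJ2BP lies between -1.15 and -0.70 in all RNA-seq lysates.

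The members are set here beside the groups to which they belong. The lists used here were chosen with earlier results in view, and their counts describe them only. Of 14 tested genes of the translocon list (Sec61 subunits, SEC62, SEC63, TRAP, TRAM and multipass translocon components), 13 were called higher at the ER, with a list median of 1.84 against -0.67 for all entries. At the OMM 5 were higher and 4 lower, and their median was 0.08, whereas 7 were higher and 0 lower with TMM and with DESeq2 (median 0.39 with TMM). SEC61A1, the pore-forming subunit, was at 2.25 at the ER (SE 0.12) and -0.41 at the OMM (SE 0.12, adjusted p = 0.0071, but -0.10 and not called with TMM). SEC61G, the other small tail-anchored subunit, was at -0.03 at the ER (SE 0.11) and 1.53 at the OMM (SE 0.12, adjusted p = 8.94e-09). It was the lowest gene of the list at the ER and the highest at the OMM, and with TMM its ER value was 0.61 (adjusted p = 0.000239). SEC61B was below 13 of the 14 others at the ER and above 13 of them at the OMM. At the ER the list was led by SSR1 (joint entry with CAGE1), a TRAP subunit, at 2.27, and at the OMM SEC63, a partner of the channel, was lowest at -0.46.

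At the ER, 20.1% of all entries tested were called higher and 71.6% lower. Of 13 tested ER tail-anchored proteins other than SEC61B, 0 were called higher at the ER and 12 lower, with a median of -0.68 beside -0.67 for all entries. With TMM 1 was higher and 2 lower, and with DESeq2 1 and 1. SEC61B (fitted 0.69) was above all 13, from SEC61G at -0.03 down to VAPB, a contact-site protein, at -0.96. At the OMM 4 were higher and 4 lower (5 and 0 with TMM, 4 and 0 with DESeq2), led by CYB5A (cytochrome b5) at 1.58 and ending with the SNARE STX18 at -0.61, and SEC61B stood above 11 of the 13. Of the 7 genes of the insertion pathway, 3 were higher and 3 lower at the ER (4 and 1 with TMM or DESeq2), between GET1 (joint entry, 1.06) and BAG6 (-0.98). At the OMM 3 were higher and 1 lower (5 and 1 with TMM or DESeq2), between the same entries (1.05 and -0.67). GET1 encodes a membrane receptor of the pathway and BAG6 a cytosolic factor.

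Of 11 tested OMM tail-anchored proteins other than SYNJ2BP, 4 were called higher and 2 lower at the OMM (6 and 1 with TMM, 6 and 0 with DESeq2), between TOMM7, a small subunit of the TOM complex, at 2.12 and MAVS, an antiviral signaling adaptor, at -0.66. Their median was 0.28 against -0.36 for all entries, and the SYNJ2BP entry (0.97) lay above 9 of them. At the ER 0 were higher and 9 lower (2 and 1 with TMM), beside 20.1% and 71.6% of all entries. The SYNJ2BP entry (0.52) lay above all 11 there. Of the 435 countable bases of that entry 239 lie in COX16, so its ranks are not those of SYNJ2BP alone. In the cytosol 1 was higher (0 with TMM) and 3 lower, between MAVS (0.42) and TOMM22, a TOM receptor (-1.15).

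Of 43 tested 60S ribosomal protein entries other than RPL29, 38 were called higher and 2 lower at the OMM, with a median of 0.84, from RPLP1 (2.35) to RPL11 (-1.58). RPL29 at 0.29 was below 39 of them. At the ER 2 were higher and 36 lower on the scale of coding totals, beside 20.1% and 71.6% of all entries. With TMM 15 were higher and 8 lower. On the scale of coding totals RPL29 stood above 33 of the 43 at the ER. The extremes there were RPL13 (0.50) and RPL11 (-3.42). In the cytosol 3 were higher and 16 lower, with RPL11 lowest (-3.76), and RPL29 stood below 29. The countable coding length of the 60S genes with entries of their own ranged from 12 to 485 bases, so the values of single ribosomal protein genes rest on few positions.

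The other subunits that the study tagged and the other anchors it tried gave values of their own. RPL10A was at -0.45 at the ER (0.18 and not called with TMM), 0.91 at the OMM and 0.06 in the cytosol. RPL13 was at 0.50, 0.96 and 0.29, and the RPL36 entry (joint with HSD11B1L) at -0.21 (0.42 with TMM), 1.46 and -0.01. All 3 exceeded RPL29 at the OMM. Of the anchors, TOMM70, an import receptor with an N-terminal TMD, was at -0.52, -0.58 and 0.15, with the ER value at 0.12 with TMM, and the joint entry with TOMM5, a small TOM subunit, at -0.85 (-0.22 and not called with TMM), 0.30 and -0.83.

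**Figure D4:**
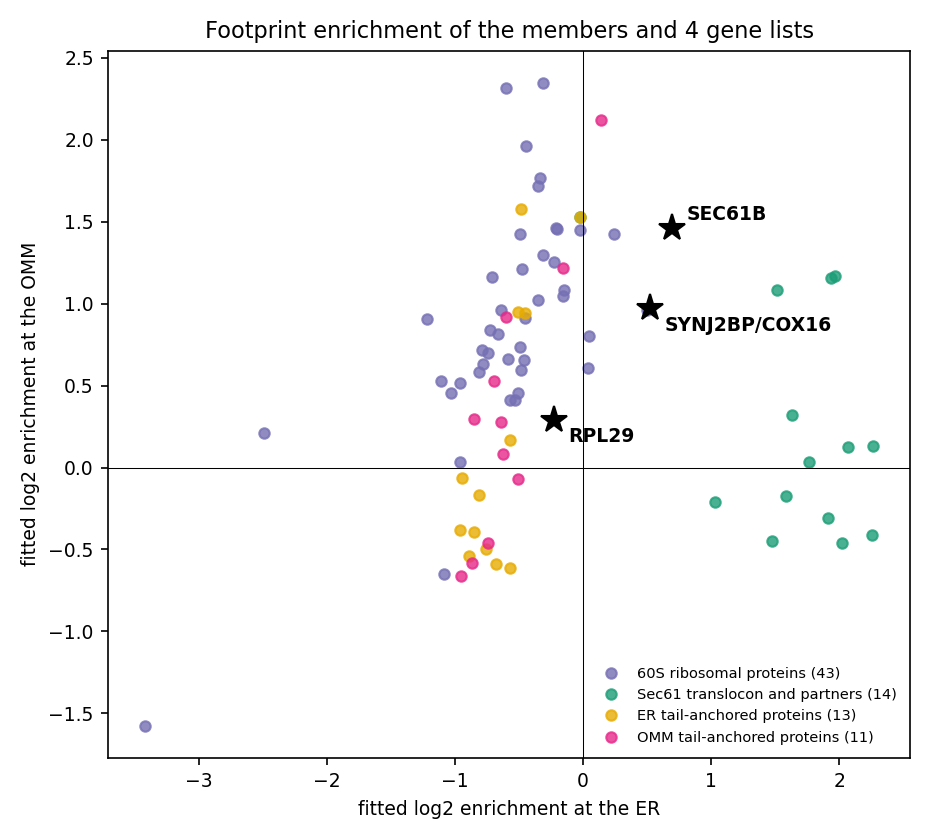
Fitted log2 footprint enrichment at the ER (x axis) and at the OMM (y axis). Colored points are entries of the 4 gene lists, with the number of entries in the key, and black stars are the members. SEC61B (0.69 and 1.46) lies left of and above 13 of the 14 other translocon entries, the exception being SEC61G, and RPL29 (-0.23 and 0.29) below most other 60S genes at the OMM.

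RNA-seq at the OMM asked whether whole transcripts of the members were pulled down and whether AKAP1, an OMM protein that binds RNA, or LARP4, an RNA-binding protein, was needed. SEC61B CPM, total input and then pulldown, was 109.6 and 319.8 in wild-type replicate 1 and 95.3 and 319 in replicate 2. The corresponding values were 97.0 and 112 and then 93.4 and 91.0 in AKAP1 null cells, 95.3 and 220.0 and then 87.6 and 164 in LARP4 null cells, and 66.9 and 163 without CHX. SEC61B log2 enrichment was 1.54 and 1.74 in wild-type, 0.21 and -0.04 in AKAP1 null, 1.21 and 0.90 in LARP4 null and 1.28 without CHX. The AKAP1 null lysates stood apart below the rest, and the LARP4 null lysates lay below both wild-type lysates.

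The edgeR fit gave SEC61B an enrichment of 3.13 times in wild-type (95% interval 2.61 to 3.74, adjusted p = 1.7e-05), 1.06 times in AKAP1 null (0.889 to 1.27, adjusted p = 0.561) and 2.08 times in LARP4 null (1.74 to 2.48, adjusted p = 0.000231). AKAP1 null cells were below wild-type by 1.56 on the log2 scale, a fitted difference of -1.56 (SE 0.16, adjusted p = 0.000598). The LARP4 null difference was -0.59 (SE 0.16, edgeR adjusted p = 0.279), and it passed with DESeq2 (-0.80, adjusted p = 0.00134). Without LARP4 null replicate 1 it was -0.74, a value that rests on 1 LARP4 null lysate. Of 13856 genes, 20.2% were called higher and 45.6% lower in wild-type (31.0% and 27.8% with TMM), 13.9% and 28.1% in AKAP1 null (20% and 20.7%), 22.8% and 30% in LARP4 null (27.9% and 25%), 6.52% and 7.96% for AKAP1 null against wild-type (2.06% and 10.3%) and 0.0% for LARP4 null against wild-type (2270 at an unadjusted p under 0.05, 507 called by DESeq2 and 5664 without LARP4 null replicate 1). Median log2 values of all genes were -0.28, -0.12 and -0.06 in the genotypes and 0.19 and 0.17 for the differences of AKAP1 null and LARP4 null from wild-type.

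SYNJ2BP transcripts were below their total input in all 7 OMM pulldowns, and lower by test in the 3 genotypes. Total input and pulldown were 155 and 69.8 CPM and 142 and 65.0 CPM in the wild-type replicates, 146 and 89.8 and 157 and 89.6 in AKAP1 null, 147 and 66.9 and 143 and 70.9 in LARP4 null, and 128 and 62.2 without CHX. The log2 ratios were -1.15 and -1.13, -0.70 and -0.81, -1.14 and -1.01, and -1.04, all below the medians of their lysates, and SYNJ2BP stood between the 3.3 and 12.6 percentiles. Fitted values were -1.14 in wild-type (SE 0.09, edgeR adjusted p = 2.35e-05), -0.75 in AKAP1 null (SE 0.09, adjusted p = 0.000517) and -1.07 in LARP4 null (SE 0.09, adjusted p = 0.000115). AKAP1 null cells differed from wild-type by 0.38 (SE 0.12, edgeR adjusted p = 0.0675), with the median of all genes at 0.19. Leaving out 1 replicate at a time gave 0.33 to 0.44 for SYNJ2BP, and the lowest value over all alternatives was 0.21. LARP4 null cells differed from wild-type by 0.07 (SE 0.12, edgeR adjusted p = 0.753). The footprint entry that contains SYNJ2BP was higher in the pulldown at the same membrane (1.00 and 0.94), a comparison between separate tables that was not tested. COX16 transcripts gave 0.11 and 0.47 in wild-type, -0.15 and 0.05 in AKAP1 null, 0.14 and -0.06 in LARP4 null and 0.18 without CHX, and no COX16 test passed (wild-type 0.29, SE 0.15, adjusted p = 0.126). SYNJ2BP made up 90.6% and 89.7% of the counts of the 3 genes in the wild-type pulldowns, against 95.8% and 96.4% in the total inputs.

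RPL29 transcripts were enriched in wild-type. Total input and pulldown were 311 and 460.4 CPM and 334 and 507 CPM in the wild-type replicates, 244 and 331 and 312 and 285 in AKAP1 null, 379 and 495 and 247 and 294 in LARP4 null, and 375 and 338 without CHX. The log2 ratios were 0.56 and 0.60 in wild-type, 0.44 and -0.13 in AKAP1 null, 0.39 and 0.25 in LARP4 null and -0.15 without CHX, so the wild-type values were the highest and the AKAP1 null replicates lay on both sides of 0. The fit gave 0.58 in wild-type (SE 0.13, edgeR adjusted p = 0.00415), 0.16 in AKAP1 null (SE 0.13, adjusted p = 0.361) and 0.32 in LARP4 null (SE 0.13, adjusted p = 0.0677, passing with TMM at 0.41 and without LARP4 null replicate 2 at 0.39). The wild-type call was lost without wild-type replicate 2 (adjusted p = 0.067). AKAP1 null differed from wild-type by -0.43 (95% interval -0.85 to -0.01, edgeR adjusted p = 0.144). This difference passed with DESeq2 (-0.57, adjusted p = 0.0263), and leaving out 1 replicate at a time gave -0.71 to -0.14. LARP4 null differed by -0.27 (adjusted p = 0.404).

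Of the other 46 60S genes, 44 were called higher in wild-type RNA-seq, with a median of 1.36, from RPL37A (2.21) to RPL36A (-0.16), and RPL29 was below 44 of them. In AKAP1 null cells 15 were higher and 5 lower (20 and 3 with TMM) and in LARP4 null cells 44 higher and 1 lower. Against wild-type, 43 of the 46 fell in AKAP1 null (44 with TMM), with a median of -1.21 and a largest fall in RPL23A (-2.23), and RPL29 lay above 44 of them. RPL10A, RPL13 and RPL36 changed by -1.28, -1.01 and -1.78, all called. In LARP4 null against wild-type 0 of 46 passed in edgeR, with a median of -0.59, whereas DESeq2 called 41 lower, with a median of -0.79.

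In RNA-seq SEC61G was at 1.47 in wild-type (SE 0.10), 0.04 in AKAP1 null and 0.89 in LARP4 null, and AKAP1 null differed from wild-type by -1.43 (SE 0.14, edgeR adjusted p = 0.000598). SEC61A1 was at -0.02, 0.37 and 0.14, and its difference in AKAP1 null was 0.39 (SE 0.13, adjusted p = 0.0807). Of the 15 translocon genes 5 were higher and 5 lower in wild-type (6 and 1 with TMM), between TMEM147 (1.58) and TRAM2 (-0.60), and 1 rose and 2 fell in AKAP1 null against wild-type (0 and 2 with TMM). SEC61B was above all 15 in wild-type and below all 15 in that difference. Of the 15 ER tail-anchored genes 6 were higher and 5 lower in wild-type (10 and 1 with TMM, 9 and 1 with DESeq2), between CYB5A (1.5) and VAPB (-0.68), and 3 fell in AKAP1 null against wild-type (4 with TMM). Of the 7 insertion genes 4 were higher (5 with TMM), led by GET3 (0.93), the targeting ATPase, with BAG6 lowest (-0.26), and 1 fell in AKAP1 null (GET1, -0.58).

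Of 15 tested OMM tail-anchored genes 7 were higher and 5 lower in wild-type (9 and 4 with TMM), between TOMM7 (2.08) and MAVS (-1.03), and SYNJ2BP was below all 15. In AKAP1 null against wild-type 1 rose and 5 fell (0 and 5 with TMM), from BNIP3L, a mitophagy receptor (0.61), to TOMM7 (-1.86), and SYNJ2BP (0.38) was above 14 of them. The anchors TOMM5 and TOMM70 were at 1.08 (SE 0.09) and -0.65 (SE 0.08) in wild-type, and in AKAP1 null they differed from wild-type by -1.31 (adjusted p = 0.00044) and 0.54 (adjusted p = 0.0197, and 0.155 with TMM).

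The genes with the pattern most like each member were found by the root-mean-square difference of log2 enrichment over the 13 lysates, among 6424 genes with at least 64 total input counts in each. Nearest to RPL29 were STMP1 (0.175), LYRM1 (0.201) and C2orf76 (0.213). Nearest to SEC61B were NDUFB6 (0.247), PNKD (0.273) and NDUFB11 (0.282), of which NDUFB6 and NDUFB11 encode subunits of respiratory complex I. NDUFB6 was at 0.40 and 0.74 at the ER, 1.19 and 1.33 at the OMM, 1.75 and 1.82 in wild-type RNA-seq and 0.41 and 0.62 in AKAP1 null. Nearest to SYNJ2BP, with footprints of its joint entry, were FTL (0.345), TTC14 (0.425) and LYRM7 (0.455), and FTL, the ferritin light chain, had 1.26 and 1.13 at the OMM in footprints and -0.61 and -0.78 in wild-type RNA-seq. Over the 7 RNA-seq lysates alone, among 12821 genes, the nearest were CIB2, USP2-AS1 and LYRM1 for RPL29 (0.069 to 0.104), NEDD8, SNRPG and MORN2 for SEC61B (0.098 to 0.114) and SMCHD1, BLTP3B and GNB4 for SYNJ2BP (0.063 to 0.064).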

How the data were processed

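Ribosome footprints and whole transcripts were sequenced from HEK293T total inputs and streptavidin pulldowns, 26 libraries in all, and every sample was grouped by its labels. Per the labels and the study's methods, footprints of 27 to 36 nt were aligned to GRCh38 and assigned after trimming 13 nt from both ends, and the submitters' processing notes name Bowtie and GRCh38. The authors deposited estimated counts per region that can be fractional, because plastid spreads each footprint over its positions. The authors also deposited RPKM per unmasked length, with all reads on annotated transcripts as denominator. For RNA-seq, the authors deposited read counts per gene from STAR and featureCounts. Their FPKM column, treated here as a score since the deposited values are 10 times those computed from the counts, was not used. Between 3 and 7 broken lines per RNA-seq table were dropped.

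Estimated counts were rounded and tested with edgeR 4.0.16 (glmQLFit and glmQLFTest, two-sided, Benjamini-Hochberg over all entries tested, threshold 0.05) in R 4.3.3. Enrichment models had a term per lysate and a pulldown effect per group, scaled by library totals (coding totals for footprints). Entries had at least 64 counts in each total input of a location, or a mean of at least 64 for RNA-seq and levels. Levels in total inputs used TMM. RNA-seq log2 ratios of single lysates used a pseudocount of 0.5. SE and 95% intervals come from these fits and cover the spread between replicates, not mappability. Alternatives were TMM, DESeq2 1.42.0, other filters, exon counts, no block, leaving out each replicate and, chosen after seeing the data, RPKM denominators and nearest genes over RNA-seq alone. The fits were tested on simulated data. Of genes with a log2 change of 1, 93.9% were recovered for OMM enrichment and 72.2% for AKAP1 null against wild-type. Of genes with a log2 change of 0.5, 36.6% were recovered for OMM enrichment and 1.5% for AKAP1 null against wild-type.

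The members and lists were chosen with earlier results of these data known. Genes were named if they were members, the highest or lowest of a list, SEC61A1 or SEC61G, other tagged subunits or anchors, or the 3 nearest in pattern. There is 1 list extreme that is not reported here. Sequences and positions came from GRCh38 with GENCODE 44. Total input and pulldown of a lysate were paired by design. Replicate numbers across lines mark no stated shared day, and the correlation of same-numbered deviations ranged from -0.1 to 0.34, so lines were not paired.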

Additional observations from a re-analysis of the deposited data

Results flagged for a closer look

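Enrichment differed between groups, by a test of the difference itself in edgeR, for 9 results on the scale of coding or library totals. For footprints at the ER against the cytosol these were SEC61B (log2 difference 0.90, SE 0.19, adjusted p = 0.000397) and the SYNJ2BP entry (0.49, SE 0.13, adjusted p = 0.00296). At the OMM against the cytosol they were SEC61B (1.66, SE 0.21, adjusted p = 6.87e-06), the SYNJ2BP entry (0.94, SE 0.14, adjusted p = 3.97e-05) and RPL29 (0.74, SE 0.15, adjusted p = 0.000694). For the ER minus the OMM they were SEC61B (-0.76, SE 0.20, adjusted p = 0.00463), RPL29 (-0.52, SE 0.15, adjusted p = 0.00905) and the SYNJ2BP entry (-0.45, SE 0.14, adjusted p = 0.0137). In RNA-seq, SEC61B differed between AKAP1 null and wild-type cells (-1.56, SE 0.16, adjusted p = 0.000598). Comparisons with the cytosol share its libraries, and groups of 2 were not tested for single outlying samples.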

How the results depend on the processing

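Of 537 values recomputed under other settings, 461 kept direction and side of the threshold, 37 lost their call, 17 gained one and 22 changed sign. Of the 22, 18 had no call under either setting. Coding shares had no threshold and counted as kept if they moved by less than the SD within lines. Levels of the members passed under no setting, so their kept values are not kept calls. Values below are log2, with edgeR unless DESeq2 is named, and the cause of each change was not tested. RPL29 at the ER reversed with TMM (0.41), DESeq2 (0.37) and RPKM denominators (0.054), and the SYNJ2BP entry in the cytosol with exon counts (-0.34). Signs of values that never passed turned for SYNJ2BP in LARP4 null against wild-type RNA-seq (TMM -0.14, DESeq2 -0.14), cytosol SEC61B (RPKM denominators 0.033) and the level of the SYNJ2BP entry in the cytosol line (library totals 0.053, exon counts 0.059). ER against cytosol RPL29 gained a call with TMM (0.85) and DESeq2 (0.79). ER against OMM lost its calls with TMM, DESeq2 and RPKM denominators for RPL29 (-0.19, -0.26, -0.22), SEC61B (-0.43, -0.49, -0.46) and the SYNJ2BP entry (-0.12, -0.18, -0.145). With RPKM denominators cytosol RPL29 lost its call (-0.21) and the cytosol SYNJ2BP entry gained one (0.27). With exon counts the ER SYNJ2BP entry (0.11) and OMM RPL29 (0.12) lost theirs and cytosol SEC61B (-0.35) gained one. In RNA-seq, calls were gained for LARP4 null RPL29 (TMM 0.41, DESeq2 0.40), AKAP1 null against wild-type RPL29 (DESeq2 -0.57) and LARP4 null against wild-type SEC61B (DESeq2 -0.80).

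Without the lysate pairing (no replicate block), calls were lost for RPL29 at the ER (-0.23), OMM (0.29), cytosol (-0.44) and in wild-type RNA-seq (0.59), for ER against cytosol SEC61B (0.94) and the SYNJ2BP entry (0.495), for ER against OMM RPL29 (-0.53), SEC61B (-0.71) and the entry (-0.45), and for OMM against cytosol RPL29 (0.74), SEC61B (1.66) and the entry (0.95). A replicate block across lines on total inputs changed no call of a member (SEC61B in the ER line 0.41). Entries called without the lysate pairing numbered 4744 (ER), 1633 (OMM), 30 (cytosol), 2469 (ER against cytosol), 294 (OMM against cytosol), 1447 (ER against OMM), 6078 (wild-type), 2198 (AKAP1 null), 3667 (LARP4 null) and 429 (AKAP1 null against wild-type), against 7222, 4519, 639, 5917, 3886, 3577, 9127, 5822, 7312 and 2006. Among settings that kept all replicates, other counts that moved over 1.5 times were ER 4350 (TMM) and 3776 (DESeq2), ER against cytosol 3600 and 3046, cytosol 388 (DESeq2), 2803 (RPKM denominators) and 1034 (exon counts), LARP4 null against wild-type 507 (DESeq2, from 0), and levels in AKAP1 null 15 and LARP4 null 28 (DESeq2, from 0 and 2) or 0 (LARP4 null, replicate block).

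Leaving out 1 replicate at a time gave -0.42 to -0.026 for RPL29 at the ER, 0.20 to 0.41 at the OMM, 0.020 to 0.42 for ER against cytosol and -0.72 to -0.32 for ER against OMM, -0.97 to -0.50 for SEC61B and -0.52 to -0.37 for the SYNJ2BP entry in ER against OMM. In RNA-seq it gave 0.56 to 0.605 for RPL29 in wild-type, 0.25 to 0.39 in LARP4 null and -0.71 to -0.14 in AKAP1 null against wild-type, 0.33 to 0.44 for SYNJ2BP there, and -0.74 to -0.44 for SEC61B in LARP4 null against wild-type. Signs of uncalled values turned within -0.13 to 0.44 for RPL29 and -0.037 to 0.21 for SEC61B in AKAP1 null, -0.035 to 0.11 for the SYNJ2BP entry in the cytosol, -0.56 to 0.19 for the level of SEC61B and -0.28 to 0.24 for that of the entry in the cytosol line, -0.027 to 0.098 for the SYNJ2BP level in AKAP1 null, -0.36 to 0.24 and -0.046 to 0.014 for the RPL29 and SYNJ2BP levels in LARP4 null, and -1.17 to 3.04 points for the coding share of the entry. Counts of calls spanned 1319 to 8561 in AKAP1 null, 488 to 6488 in AKAP1 null against wild-type, 0 to 5664 in LARP4 null against wild-type, 5320 to 10731 in wild-type, 2822 to 4808 at the OMM, 2574 to 3993 for OMM against cytosol, and for levels 0 to 601 (ER), 0 to 448 (OMM), 0 to 2147 (cytosol) and 0 to 8 (LARP4 null). Precision is limited by 2 replicates per group, by 103 SEC61B counts in OMM pulldown 1 and by the few countable coding bases of each member.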
